A study of Drosophila melanogaster with 2 samples.

Results

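Sox102F-GFP, a fly SoxD protein fused to a green fluorescent protein (GFP) tag, had 464 binding summits near starts of protein-coding genes on opposite strands. At 444 the nearest genes were read away from each other and at 20 they overlapped, and all 464 are called divergent-start summits here. They are 6.58% of the 7055 summits of the optimal peak list (Wilson 95% interval 6.02 to 7.18%). A summit, the position of strongest enrichment in a peak, was counted when annotated transcription starts of at least 2 different protein-coding genes, on opposite strands, each lay within 500 bp of it. The 464 summits belong to 432 nearest gene pairs and to 897 genes. The remaining summits were 1891 with coding starts of 1 strand only, called single promoters here, and 4700 with no coding start within 500 bp.

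The data are chromatin immunoprecipitation with sequencing (ChIP-seq) from whole Drosophila melanogaster at the white prepupa stage, males and females together. The flies are of a transgenic line stably expressing Sox102F with GFP at its C terminus, and precipitation used an antibody to GFP, although 1 label field names Sox102F as the antibody. There is 1 group with 2 biological replicates, numbered 1 and 4, and no untagged line or second stage was analysed here. Whole animals were used, so strong binding in few cells and weak binding in many cannot be told apart. Depth is unknown, because the files hold no read counts, and with 2 samples of 1 group no test over samples exists. Both replicates' values therefore stand as the error, and Wilson intervals cover counting over summits or genes, which are not replicates.

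SOX proteins bend DNA through an HMG domain that prefers the core word ACAAT. Divergent gene pairs are common in the compact fly genome, and many are housekeeping genes whose promoters carry the DNA replication-related element (DRE, TATCGATA), the CGATA core recognised by the boundary protein BEAF-32, or motif 1, with the core GGTCACAC. Promoters of regulated genes more often carry a TATA box or GAGA elements, which the GAGA factor binds.

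The strongest pairs with 60 to 300 bp between their starts include 3 whose interval is free of annotated exons, and none of the 3 intervals holds ACAAT on either strand. They are shown as short intervals beside summits that rank among the 15 strongest at divergent starts. The dm6 sequence is from the release 6 assembly, plus strand, with starts from Ensembl annotation, and capitals mark CGATA or TATAAA on either strand. Between Chro and Ssl1 the whole interval is 104 bp, and the summit lay 99 bp from the Chro start, outside it (chr3L:22878985-22879088).
Chro/Ssl1: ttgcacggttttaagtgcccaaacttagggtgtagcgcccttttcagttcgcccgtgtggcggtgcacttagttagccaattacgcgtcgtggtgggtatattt
Between Tcs5 and CHMP2B the summit was base 111 of 223 (chr3L:5139396-5139618), and the interval holds 1 CGATA, on the minus strand, and 1 TATAAA.
Tcs5/CHMP2B: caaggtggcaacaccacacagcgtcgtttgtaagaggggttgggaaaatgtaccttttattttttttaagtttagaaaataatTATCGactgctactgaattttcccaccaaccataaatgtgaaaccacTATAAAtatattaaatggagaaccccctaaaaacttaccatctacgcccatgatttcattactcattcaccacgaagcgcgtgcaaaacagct
Between CG3437 and CG3552 the summit was base 134 of 242 (chr3L:9457670-9457911), and 2 overlapping TATAAA words lie on opposite strands.
CG3437/CG3552: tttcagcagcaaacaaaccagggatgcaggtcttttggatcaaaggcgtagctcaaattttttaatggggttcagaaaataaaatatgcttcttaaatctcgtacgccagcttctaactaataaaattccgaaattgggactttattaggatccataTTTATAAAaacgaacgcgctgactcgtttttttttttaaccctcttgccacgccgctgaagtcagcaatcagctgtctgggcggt

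Words did occur at other summits, and the next 61-bp windows show, for each of 4 words, the strongest summit between starts whose window holds the word and no annotated exon, with the summit at base 31 and the word in capitals. RpS25/CG4820, at a ribosomal protein gene, has the DRE (chr3R:11216315-11216375). Mical/CG3909, at the gene of an actin-oxidising enzyme, has motif 1 on the minus strand (chr3R:10042899-10042959). The window between CG7369 and its minus-strand neighbour has the E-box CAGCTG (chr3L:22741627-22741687). Acbp1/Piezo, at an acyl-CoA binding protein gene and the gene of a mechanically gated channel, has GAGAG (chr2L:8162760-8162820).
RpS25/CG4820: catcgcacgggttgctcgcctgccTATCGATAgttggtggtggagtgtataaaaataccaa
Mical/CG3909: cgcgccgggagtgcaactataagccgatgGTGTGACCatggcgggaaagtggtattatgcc
CG7369: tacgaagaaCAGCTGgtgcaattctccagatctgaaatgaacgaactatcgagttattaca
Acbp1/Piezo: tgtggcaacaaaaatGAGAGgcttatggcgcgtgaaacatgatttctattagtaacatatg

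Most summits lay inside the shared upstream stretch. The nearest starts were head to head, with the minus-strand start at the lower coordinate, for 444 of 464 summits, and the other 20 lay at pairs whose transcribed parts overlap. In 324 (69.8%, 65.5 to 73.8%) the summit lay between head-to-head starts, in 120 it lay past 1 of them, inside that gene, by a median of 62 bp. The share between starts was 74.2% among the 643 such summits of the 7055 strongest entries of replicate 1 and 66.3% among the 421 of replicate 4. The outside summits were split evenly, with 60 past the minus-strand start and 60 past the plus-strand start. The median spacing of starts was 288.5 bp (quartiles 185.8 and 393.5 bp), and it was 290 bp for replicate 1 and 288 bp for replicate 4.

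The distance to the nearest start had a median of 88.5 bp overall (84 bp in replicate 1, 88 bp in replicate 4). It was similar at 200 to 299, 300 to 399 and 400 to 499 bp of spacing, with medians of 90, 99 and 89 bp. At 100 to 199 bp of spacing the median was shorter, 30 bp over 43 summits. Starts closer than 100 bp gave another picture. There the summit was between the starts in 11 of 60 cases, and it lay a median of 121 bp upstream of the farther start and 70 bp past the nearer one. The same 2 medians were 111.5 bp and 54.5 bp in replicate 1, and 123 bp and 76 bp in replicate 4. With starts 500 bp or more apart, all 47 summits lay between them, as the 500-bp limit requires, at a median of 182 bp from the nearer start. Among the 324 summits between head-to-head starts, 194 (59.9%) were in the central 50% of the interval.

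**Figure D1:**
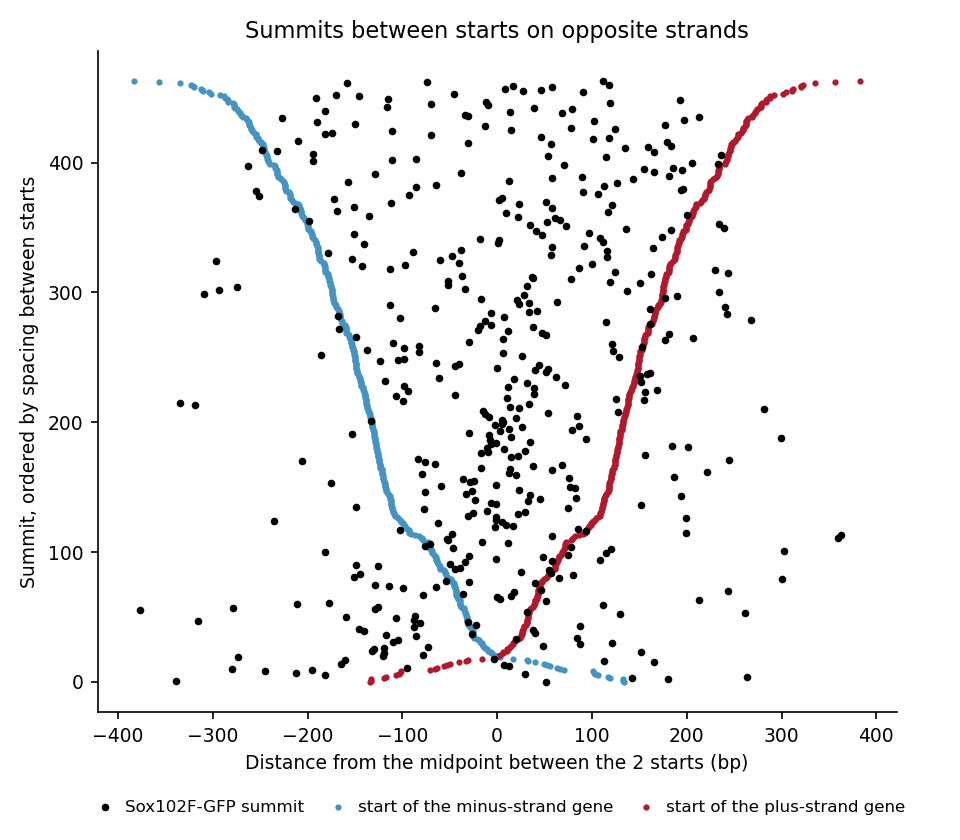
Position of each of the 464 summits (black) and of its nearest minus-strand (blue) and plus-strand (red) coding starts, as distance in bp from the midpoint between them, with pairs ordered by spacing from the bottom up. Summits fill the funnel between the starts at spacings above 200 bp and spread outside it where starts are closer, and the lowest 20 rows are pairs whose starts are not head to head.

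The highest signal, in the authors' units, was 2339 between mRpS23 (FBgn0260407), a mitochondrial ribosomal protein gene, and CenG1A (FBgn0028509), which encodes an Arf GTPase-activating protein, with 1110 in replicate 1 and 1235 in replicate 4 (2L, summit at 13835453). The next, 2194, was at Chro (FBgn0044324), a chromodomain protein gene of interbands and the spindle matrix, and Ssl1 (FBgn0037202), a subunit of the general factor TFIIH, with 1101 and 1089 in replicates 1 and 4. Its summit lay inside Chro and 204 bp upstream of Ssl1. Fbw5/CG9147, which includes an F-box protein gene, had 1756, with 837.6 in replicate 1 and 920.4 in replicate 4. In all 3 the replicates differed by less than 0.2 on the log2 scale.

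The sequence of Tcs5/CHMP2B printed above carried a signal of 1557, with 794.2 in replicate 1 and 767.1 in replicate 4. Tcs5 encodes a kinase of the tRNA threonylcarbamoylation complex and CHMP2B an ESCRT-III membrane-remodelling subunit, and the summit was 111 and 113 bp from their starts, almost at the midpoint. CG11309/CG7632 had 1487, with 648.9 in replicate 1 and 833.9 in replicate 4, the widest gap between replicates in the leading 15 (log2 ratio −0.36). Pdrg1/Pal1, where Pal1 encodes a peptide-amidating lyase, had 1426 (663.4 and 765.2 in replicates 1 and 4). Stt3A/bves, with an oligosaccharyltransferase subunit and a Popeye-domain membrane protein, had 1381 (644.4 and 735.0 in the same order).

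The other 8 of the 15 ran from 1350 down to 1044, and their replicate signals from 496.0 to 676.3 in replicate 1 and from 505.9 to 695.9 in replicate 4. They were CG8372/CG8360, CG3437/CG3552, Pex11ab/CG8320, Art3/mRpS10, mRpL23/CG9004, CG5757/CG5098, CG10747/Pyroxd1 and Mkk4/SLIRP2. Pex11ab encodes a peroxisome division factor, Art3 an arginine methyltransferase, mRpS10 and mRpL23 mitochondrial ribosomal proteins, and Mkk4 a kinase of the JNK pathway. Of the 15, the summit lay between the starts at 8, where spacing ran from 224 to 609 bp, and past a start at 7, where it ran from 33 to 134 bp.

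Only a minority of divergent pairs had a summit. The annotation holds 2720 gene pairs with opposite-strand coding starts at most 1000 bp apart, and 480 (17.6%, 16.3 to 19.1%) had a summit within 500 bp of both, counting every pair a summit serves. The share was 24.0% (653 pairs) with the strongest 7055 entries of replicate 1 and 15.7% (428 pairs) with those of replicate 4. Both replicates marked 371 pairs, replicate 1 alone 282 and replicate 4 alone 57. Per gene, 1184 of 5141 protein-coding genes with such a partner had an optimal summit within 500 bp of a start (23%, 21.9 to 24.2%), against 1199 of 8804 without one (13.6%, 12.9 to 14.4%) and 17.1% of all protein-coding genes. The shares were 30.3% with a partner and 14.3% without in replicate 1, and 21.2% and 13.4% in replicate 4. A gene with a partner has more ways to be near a summit, since a summit at its neighbour's promoter counts for both.

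Spacing went with how often a pair was marked. A summit was found at 24.1% of pairs with starts 200 to 299 bp apart (20.7 to 27.9%) and at 27.0% of those 300 to 399 bp apart (22.8 to 31.6%). At 0 to 99 bp it was 17.2% (13.9 to 21.1%) and at 100 to 199 bp 15.7% (12.3 to 19.9%). At 400 to 499 bp the share was 18.1%, and at 500 to 1000 bp, where the 500-bp limit leaves less room for a summit near both, 6.02%. Pairs whose starts overlap had 30.8% (32 of 104, 22.7 to 40.2%). Only 20 summits had nearest starts of this kind, and 1 summit can serve several pairs, so these pairs are not independent. Both replicates had more marked pairs at 200 to 399 bp than at 0 to 199 bp. In replicate 1 the shares were 24.9, 21.1, 33.0 and 38.7% over the 4 classes from 0 to 399 bp, and in replicate 4 they were 15.8, 14.6, 22.2 and 23.9%.

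**Figure D2:**
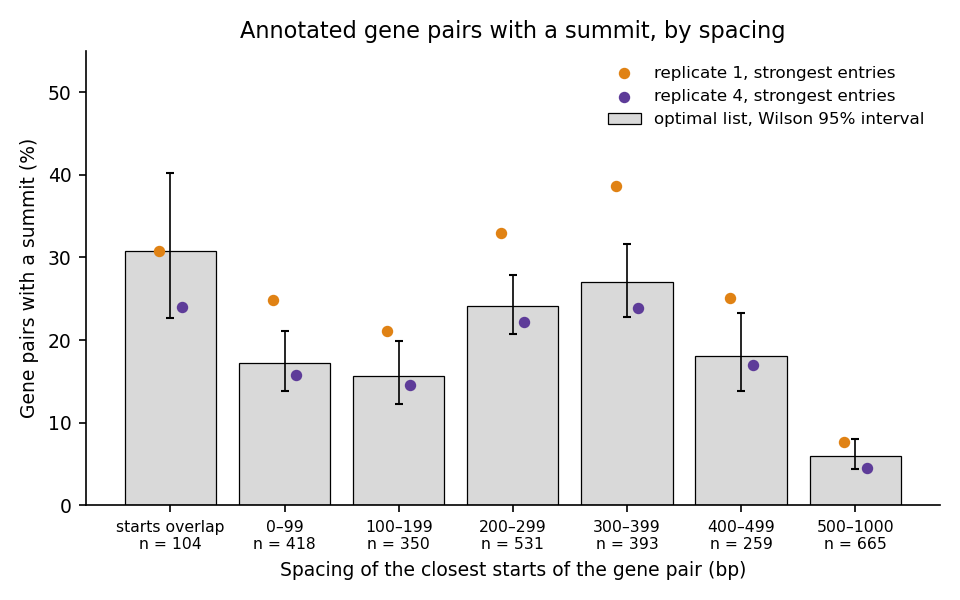
Percent of annotated gene pairs with a summit within 500 bp of both starts, by spacing of their closest starts in bp, with bars for the optimal list (Wilson 95% intervals) and points for the strongest entries of each replicate. Bars reach 24.1 and 27.0% at 200 to 399 bp against 17.2 and 15.7% below 200 bp, and replicate 1 lies above replicate 4 in all 7 classes.

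Strong peaks were more often at divergent starts than weak ones. The median signal was 179.5 at divergent starts (quartiles 115.8 and 326.0), against 139.6 at single promoters and 131.0 away from coding starts. Over summits with an entry within 100 bp in both replicates, replicate 1 had medians of 101.6 at divergent starts, 73.28 at single promoters and 67.10 elsewhere. In replicate 4 these were 92.16, 75.48 and 68.65. Divergent starts held 4 of the 20 strongest optimal summits, 21 of the 100 strongest (21.0%), 66 of the 500 strongest (13.2%) and 6.58% of all 7055. The trend was not particular to them, since single promoters held 39.0% of the 100 strongest, 36.0% of the 500 strongest and 26.8% of all 7055. Of the 100 strongest, 22 were at divergent starts in replicate 1 and 17 in replicate 4.

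The same decline ran on below the optimal list. In the pooled list of 30000 entries, which includes background, the share at divergent starts was 11.7% in the strongest 1000 and between 0.3 and 1.3% in each 1000 past rank 15000. The share at single promoters also fell, from 32.0% in the strongest 1000 to between 8.20 and 14.8% in each 1000 past rank 15000. Per length of genome, the 1.67 Mb within 500 bp of coding starts on both strands held 277 optimal summits per Mb (384 in replicate 1, 251 in replicate 4). The 13.7 Mb within 500 bp of starts on 1 strand held 138 per Mb (145 and 139), and the rest of the 6 arms 39.6. The 7055 weakest pooled entries had the other order, with 22.7 per Mb at divergent starts, 51.0 at starts on 1 strand and 53.3 elsewhere. Summits between head-to-head starts had a median signal of 191.9, those past a start 162.6, and those at overlapping starts 160.1. Pairs with starts less than 100 bp apart had the highest median of the spacing classes, 250.4, with 122.9 in replicate 1 and 133.6 in replicate 4.

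**Figure D3:**
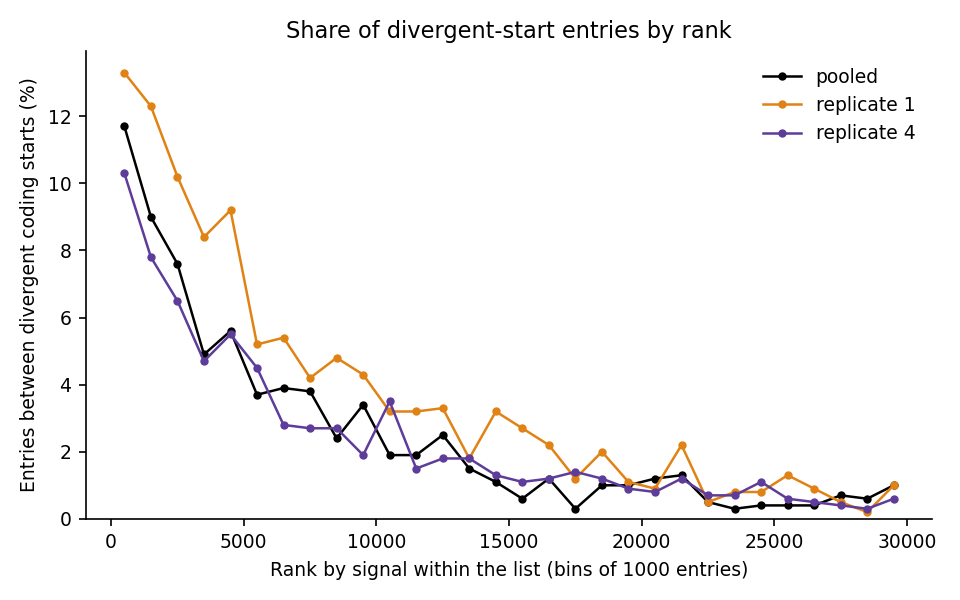
Percent of entries that lie between divergent coding starts in successive bins of 1000 entries ranked by signal, for the pooled list and each replicate's own list of 30000. The share falls from 11.7% in the first pooled bin to about 1% in the lower ranks, and replicate 1 starts above replicate 4.

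Replicate 1 marked divergent starts more than replicate 4 did. Of the 464 summits, 323 (69.6%, 65.3 to 73.6%) were among the 7055 strongest entries of both replicates, near the background of 67.9% of all optimal summits. A further 89 (19.2%, 15.9 to 23%) were among the strongest in replicate 1 only, against 15% of single-promoter summits (13.5 to 16.7%). In replicate 4 only were 44 (9.48%, 7.14 to 12.5%), against 14.6% of single-promoter summits (13.1 to 16.3%). Among the 395 with an entry in both lists, the signal was higher in replicate 1 at 223 (56.5%), against 45.0% of single-promoter summits and 46.3% of all optimal summits. The median log2 ratio of replicate 1 to replicate 4 was 0.07 at divergent starts and −0.05 at single promoters, both small beside the SD of 0.64 and 0.67 over summits.

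Seen from each replicate's own list, the shared counts were close, 333 and 328, and the shares differed through the list sizes of 643 and 421. Of 643 divergent-start entries among the strongest of replicate 1, 333 (51.8%, 47.9 to 55.6%) had a partner within 100 bp among the strongest of replicate 4, against 65.8% of the single-promoter entries and 71.5% of the rest. In the other direction 328 of 421 (77.9%, 73.7 to 81.6%) had a partner, against 68.9% at single promoters and 66.8% elsewhere. Even in the full list of 30000, 61.6% of the replicate 1 entries had any entry of replicate 4 within 100 bp, against 88.4% the other way round. The 310 unshared entries of replicate 1 had a median signal of 71.22, against 90.14 for all 643. What sets the libraries apart was not tested, since each replicate is 1 library.

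**Figure D4:**
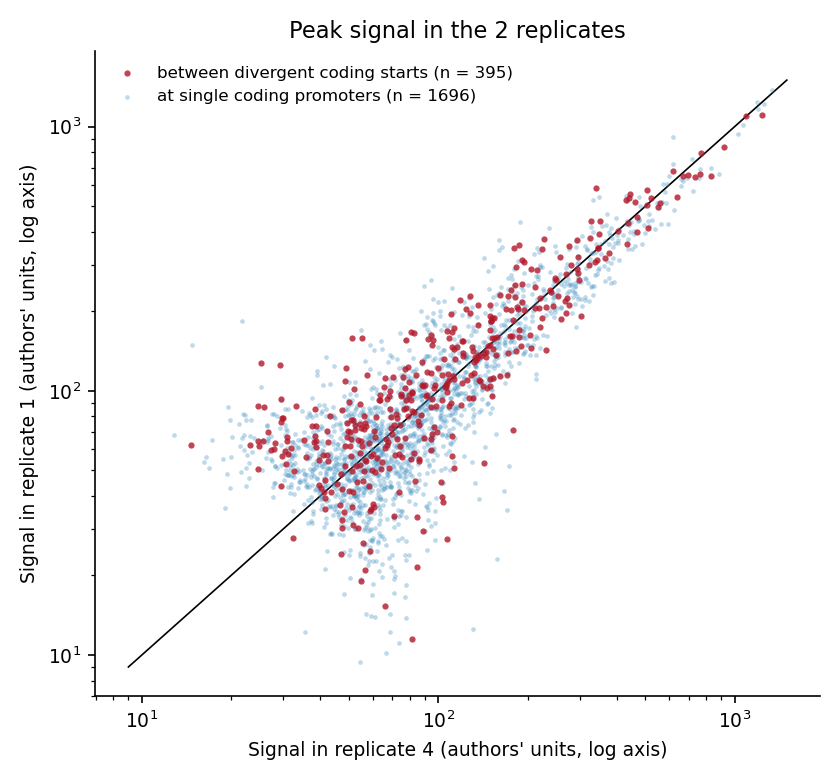
Signal of each summit in replicate 1 against replicate 4 on log axes, for 395 divergent-start summits (red) and 1696 single-promoter summits (blue) with an entry in both replicate lists, with the line of equal signal. Red points run along the line at high signal and lean to the replicate 1 side at low signal, with 56.5% of them above it against 45.0% of the blue.

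Single pairs show the range. CG2993/sgll, where sgll takes part in vitamin B6 metabolism, had 127.7 in replicate 1 and 25.22 in replicate 4 (log2 ratio 2.34), and Kpc1/CG42542, with a ubiquitin ligase gene, had 124.8 and 29.13 in the same order (2.10). At the other end, RpLP0-like/14-3-3zeta had 15.25 in replicate 1 and 66.23 in replicate 4 (−2.12), and CG9921/Dsp1, with the gene of an HMG-box corepressor, had 11.48 and 81.62 (−2.83). The pooled signals of these 4 ran from 85.19 to 193.9. Between replicates, the Spearman rank correlation of signals was 0.83 over the 395 divergent-start summits, a description across summits that share both libraries, and 0.74 over 1696 single-promoter summits. Over the same 395, the median shift of the summit between replicates was 22 bp, against 25 bp at single promoters and over all optimal summits. Matching within 100 bp limits how large this shift can be.

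The DNA at divergent starts was rich in A and T around the summit and less so in the flanks. Within 50 bp of the summit the median AT content was 66.3% at divergent starts, 60.4% at single promoters and 67.3% away from coding starts. At 500 bp to either side it was 50.5% at divergent starts and 58.4% at single promoters. The flanks fell in coding exons far more often, 48.3% on the lower-coordinate side and 49.6% on the other, against 12.8 and 15.7% at single promoters. The summit itself was in a coding exon in 6 cases (1.29%). Both replicates gave nearly the same composition, with medians at the summit of 65.3% in replicate 1 and 66.3% in replicate 4.

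**Figure D5:**
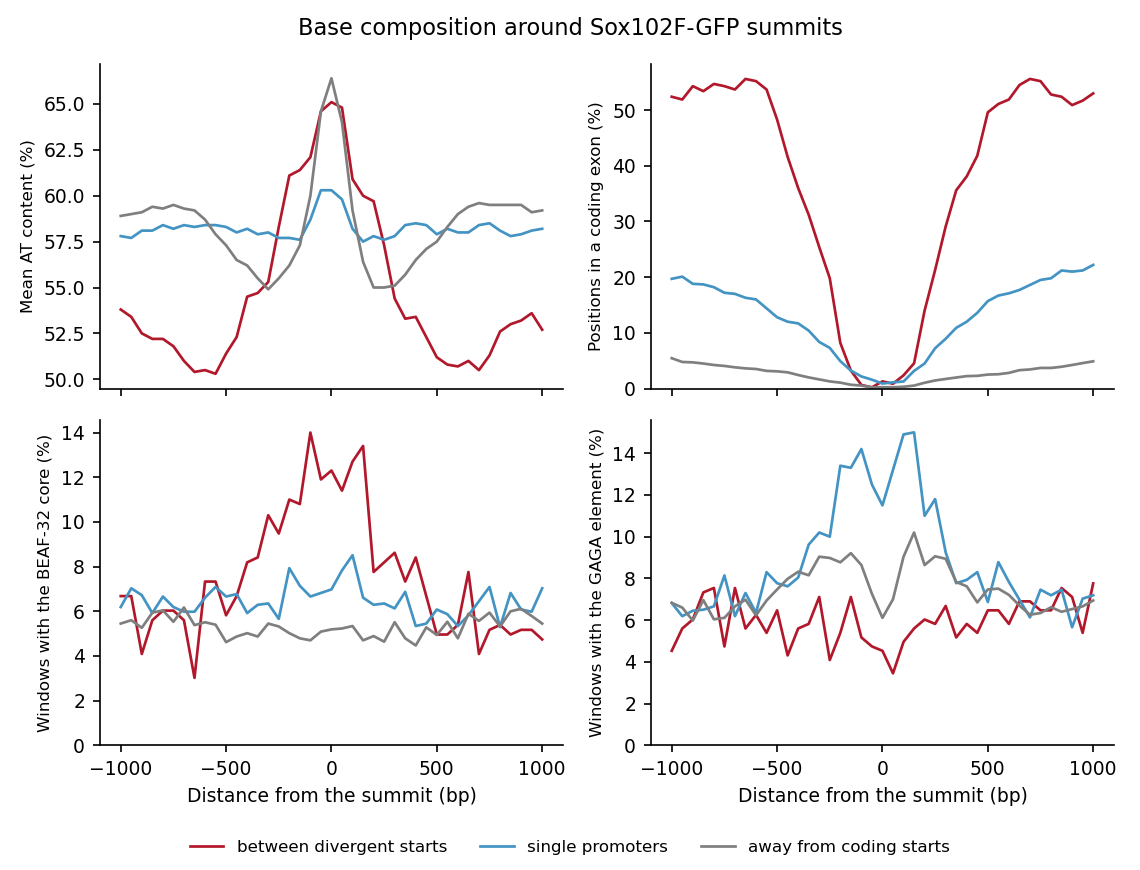
Mean AT content, percent of positions in a coding exon, and percent of 51-base windows with the BEAF-32 core or the GAGA element, against distance from the summit in bp, for summits between divergent starts (red), at single promoters (blue) and away from coding starts (grey). The red curves show an AT-rich centre between flanks that are lower in AT and often coding, a broad rise of the BEAF-32 core and no rise of the GAGA element.

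Housekeeping promoter words were more frequent at divergent starts than at single promoters or over all optimal summits. Words were counted on either strand in the 101 bases around the summit. CGATA was in 105 of 464 windows (22.6%, 19.1 to 26.7%), against 13.2% at single promoters (11.7 to 14.8%) and 12.0% of all optimal summits, with 24.6% in replicate 1 and 23.8% in replicate 4. The DRE word TATCGATA, which contains CGATA, was in 17 (3.66%, 2.30 to 5.79%), against 1.37% at single promoters and 0.822% overall. It was in 5.44% of divergent-start entries in replicate 1 and 3.56% in replicate 4. GGTCACAC was in 14 (3.02%, 1.81 to 5%), against 0.899% and 0.624%. In the windows 500 bp away, TATCGATA was in 2 on one side and 0 on the other.

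ACAAT was in 133 windows at divergent starts (28.7%, 24.7 to 32.9%), near the 29.0% of all optimal summits, against 24.0% at single promoters (22.1 to 26.0%) and 31% away from coding starts. Among replicate 1 entries it was in 33.1% at divergent starts, 25% at single promoters and 30.6% elsewhere. Among replicate 4 entries the shares were 30.4, 24.6 and 30.4% in the same order. On both flanks of divergent starts, which are less AT-rich, it was 21.3%. The longer AACAAT was in 12.9%, against 11.1% at single promoters. TATAAA was in 106 windows (22.8%, 19.3 to 26.9%), against 16.2% at single promoters and 19.5% of all optimal summits. GAGAG was in 40 (8.62%, 6.39 to 11.5%), against 21.0% at single promoters (19.2 to 22.9%) and 14.2% of all. The replicates gave 8.55 and 8.31% for GAGAG in entries at divergent starts, and 19.0 and 22.1% at single promoters, for replicates 1 and 4.

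The words CGATA, TATCGATA and GGTCACAC were no more frequent at bound pairs than at pairs without a summit. At the midpoint of head-to-head pairs, in windows of the same size, CGATA was in 83 of 431 with a summit (19.3%, 15.8 to 23.2%) and in 520 of 2087 without one (24.9%, 23.1 to 26.8%). TATCGATA was in 3.71% with a summit (2.30 to 5.94%) and 4.98% without (4.13 to 6.00%), and GGTCACAC in 1.62% (0.789 to 3.31%) and 3.07% (2.41 to 3.90%). ACAAT was in 32.7% of midpoints with a summit (28.5 to 37.3%) and 28.7% of those without (26.8 to 30.7%), intervals that overlap. Midpoints with a summit had the higher median AT content, 70.3% against 67.3%. TATAAA was in 25.3 and 23%, and GAGAG in 9.05 and 7.47%, both slightly higher with a summit. Spacing was not matched between the 2 sets. Of pairs 500 to 1000 bp apart, whose midpoints lie farthest from the starts, 40 of 665 had a summit.

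Nor was the pooled signal higher where CGATA or ACAAT was present. Summits with CGATA had a median signal of 156.1, against 198.3 without it, with 79.55 against 108.9 in replicate 1 and 80.56 against 96.73 in replicate 4. With ACAAT the median was 168.7 (133 summits), against 186.3 without it, while both replicates had the opposite order over summits with an entry in both (104.6 against 99.05 in replicate 1, 104.4 against 91.77 in replicate 4). Summits with TATAAA had 211.4, against 171.2 without it, and both replicates had the same order (112.7 against 95.78 and 103.9 against 89.09).

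Cytoplasmic ribosomal protein genes number 86 by symbol, and 53 have a divergent coding partner. Of these, 26 (49.1%, 36.1 to 62.1%) had a summit between divergent starts, against a background of 17.4% of all 5141 genes with a partner. The list was also high outside divergent pairs. Any optimal summit within 500 bp of a start was found for 58 of the 86, against 17.1% of all protein-coding genes. Of those 58, 44.8% were at divergent starts, against 37.6% of all protein-coding genes with a summit. A partner was present for 61.6% of the list, against 36.9% of all protein-coding genes. With the replicates' own lists, 29 genes had a summit between divergent starts in replicate 1 and 23 in replicate 4. Their 29 summits had signals from 81.96 to 579.3 with a median of 276.4, against 179.5 for all 464. The strongest was RpS27/Nup37, beside a nuclear pore gene, with 299.1 in replicate 1 and 280.2 in replicate 4. Replicate 1 was higher at 19 of the 25 with entries in both.

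Mitochondrial ribosomal protein genes had a divergent partner more often (58 of 73), and 13 of the 58 (22.4%, 13.6 to 34.7%) had such a summit, close to the background. Of its 15 genes with any summit near a start, 13 had a divergent one, against the same 37.6% of all genes with a summit. That background includes genes without a partner, and 79.5% of this list has a partner, against 36.9% of all protein-coding genes. Among all genes with a partner, 897 of the 1184 with any summit had a divergent one. The 14 summits ran from 86.18 to 2339 in signal with a median of 190.5. Respiratory chain genes had 9 of 43 (20.9%, 11.4 to 35.2%), led by ND-ASHI, a complex I subunit beside the fumarase gene Fum1 (620.0, with 322.0 in replicate 1 and 296.9 in replicate 4). Translation factors had 6 of 28, led by the cap-binding repressor gene eIF4EHP beside CG18428 (597.2, with 375.7 and 226.8 in replicates 1 and 4). Aminoacyl-tRNA synthetases had 3 of 22, led by IleRS beside the WAVE complex gene Hem (193.4, with 92.63 and 103.0).

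For each of the remaining lists of cellular machinery the interval held the background of 17.4%. Vesicle traffic genes had 11 of 50 (22.0%, 12.8 to 35.2%), led by Vps33B, a tethering complex subunit, beside the proprotein convertase gene Fur1 (871.0, with 431.8 in replicate 1 and 435.9 in replicate 4). Mediator and general transcription factor genes had 5 of 36, led by MED30 beside the translesion polymerase gene Rev1 (565.2, with 263.4 and 297.6). Autophagy genes had 3 of 16, led by Atg2, a lipid transfer protein gene, beside CG12093 (419.1, with 240.9 and 176.5). The replication and cell cycle list, drawn by symbol pattern, had 4 of 29, led by Cdk12 beside the centriole kinase gene SAK (288.8, with 173.1 and 113.0).

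Proteasome genes had 2 of 26 (7.69%, 2.14 to 24.1%), with 5 genes in replicate 1 and 1 in replicate 4, and the stronger was the lid subunit Rpn5 beside the histone acetyltransferase gene Hat1 (335.9, with 148.1 and 190.1 in replicates 1 and 4). Splicing factors had 1 of 26, snRNP-U1-C of the U1 particle beside gukh (245.5, with 165.0 and 83.01). Mitochondrial import genes had 2 of 5, led by the outer membrane subunit gene Tom7 beside CG8229 (257.8, with 70.76 and 179.0).

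Lists of stage- and tissue-regulated genes have few divergent partners. The ecdysone response list of 23 genes has 5 with a divergent partner, and 3 of the 5 had a summit there, Hr3, usp and tai. The interval for so few genes is wide, 23.1 to 88.2%, beside the background of 17.4%. The nuclear receptor gene Hr3 beside the histidine decarboxylase gene Hdc had 479.8, with 219.3 in replicate 1 and 268.0 in replicate 4. In that list 17 of the 23 genes had any summit within 500 bp, against 17.1% of all protein-coding genes. Only 17.6% of those 17 were at divergent starts, against 37.6% of all genes with a summit, so most lay outside divergent pairs. Chemosensory receptor genes had 0 of 27, an upper Wilson bound of 12.5%, below the background of 17.4%, and cuticle protein genes 0 of 15, with a bound of 20.4%. Both counts were 0 in each replicate as well. Any optimal summit within 500 bp of a start was found for 1 of 179 chemosensory genes and 1 of 123 cuticle genes. The share among all protein-coding genes was 17.1%, so the low counts were not particular to divergent starts.

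Some loci held more than a plain pair. At 26 summits more than 2 coding genes had a start within 500 bp, and 11 had a non-coding start as well. The summit with the most, 10 genes, lay at the separately annotated trans-spliced parts of mod(mdg4), a chromatin boundary gene (579.1, with 279.4 in replicate 1 and 296.9 in replicate 4). It counts as a member because those parts are annotated as genes on both strands. Over 1 summit was found at 32 pairs. CG3437/CG3552 had its second at 136.2, with 37.95 in replicate 1 and 103.5 in replicate 4, against 1322 for the first.

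The Dref/RpL13 pair, chosen after its values were seen because Dref encodes the factor that binds the DRE, had a signal of 444.2, with 224.2 in replicate 1 and 221.1 in replicate 4, and its window held CGATA but not the whole TATCGATA.

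The summits were spread over the arms, with 90 on 2L, 74 on 2R, 106 on 3L, 130 on 3R, 63 on X and 1 on chromosome 4. The share of gene pairs with a summit was 17.2% on 2L, 14.1% on 2R, 20.1% on 3L, 20.3% on 3R and 15.6% on X. Median signal ran from 225.0 on 2L to 143.3 on X among those 5 arms. The chromosome 4 summit was at CG11076/ATPsynbeta, where ATPsynbeta encodes a subunit of mitochondrial ATP synthase (153.3, with 66.48 in replicate 1 and 89.24 in replicate 4).

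At the edge of the rule, the farther start was 497 bp away at Rassf/CenB1A (85.09, with 57.71 in replicate 1 and no entry within 100 bp in replicate 4) and 495 bp away at CG43325/CG13510 (91.26, with 36.98 and 46.60). Just outside were a summit at Evi5/HP5, at 503 bp (81.40, with 26.17 and 56.12), and a second summit at CG8229/Tom7, at 504 bp (102.4, with 55.96 and 16.43).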

How the data were processed

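The authors deposited narrowPeak lists for replicate 1, replicate 4, both pooled (30000 entries each) and an optimal list of 7055 entries. The peak signal is the authors' own and was used as deposited. It was ranked within each list, and matched entries of the replicate 1 and replicate 4 lists were compared without rescaling, so each ratio also depends on how the authors scaled the lists. The −log10 q-value deposited beside it was not used, and the lists on the older dm3 build were not analysed here. The sources used here do not give the aligner, the peak caller or the threshold behind the optimal list. Summits were computed from the deposited peak start and summit offset, counted from 1 on dm6. Coding starts came from Ensembl release 115 (BDGP6.54) on 6 arms, without transposable elements. Replicate entries were matched within 100 bp, and strongest means the 7055 highest signals of a replicate. Words were sought within 50 bp on either strand. Genes were listed by symbol pattern. Named pairs were the 15 strongest summits, the strongest of each list, the 2 highest and 2 lowest replicate ratios, the 2 just inside and 2 just outside 500 bp, and the 2 pairs with most summits, of which 1 is not reported here. Members, lists and rules were chosen with earlier results of these data known. Functions were tested on simulated data (Python 3.11.15, numpy 2.4.6, scipy 1.17.1). Depth is unknown. Alternatives changed the window, starts, list, words and matching.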

Additional observations from a re-analysis of the deposited data

How the results depend on the processing

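At divergent-start summits the median log2 ratio of replicate 1 to replicate 4 stayed above 0, from 0.04 to 0.12, under each alternative that gave it. Counts, shares and signals cannot change sign, so for them no reversal was possible. Values of other summits were not recomputed under the window, start and matching alternatives, nor for words within 100 bp. Within 25 bp, CGATA was in 12.3% at divergent starts, 6.98% at single promoters and 5.19% away from coding starts. In the same order TATAAA was in 12.3, 8.41 and 11.2%, and ACAAT in 15.3, 12.3 and 17.3%. With 20 results and 12 alternatives, 86 values moved by no more than the spread between replicates and 91 moved by more, which is narrow where both replicates happened to agree. With starts within 250 bp there were 248 summits, spacing 236 bp, midpoint distance 40.0 bp, signal 246, 76.2% in both replicates, AT 70.3%, CGATA 19.8%, GGTCACAC 1.21% and TATAAA 26.2%. Within 1000 bp the values were spacing 354 bp, midpoint distance 148 bp, signal 170, AT 64.4%, CGATA 20.5% and GGTCACAC 2.45%. With 1 start per gene, 63.1% lay between starts, at spacing 271 bp, midpoint distance 94.0 bp and signal 181. The strongest 3527 summits gave 306 members, spacing 273 bp, midpoint distance 65.5 bp, signal 268, 85.6% in both replicates, AT 69.3%, CGATA 19.6%, GGTCACAC 1.96% and TATAAA 25.2%. With 1 summit per pair, spacing was 286 bp and signal 190. Summits between head-to-head starts alone gave signal 192, log2 ratio 0.12, AT 68.3% and CGATA 25.9%. Matching within 50 bp left 57.3% in both replicates. Words within 25 bp and within 100 bp gave ACAAT 15.3 and 48.5%, TATCGATA 1.72 and 8.41%, CGATA 12.3 and 40.3%, GGTCACAC 1.51 and 4.96%, and TATAAA 12.3 and 39.2%, with AT 64.7% within 100 bp. Leaving out replicate 1 and leaving out replicate 4, the lists gave 421 and 643 members, 15.7 and 24.0% of pairs, spacing 288 and 290 bp, signal 90.0 and 90.1 on a single list's scale, ACAAT 30.4 and 33.1%, TATCGATA 3.56 and 5.44%, CGATA 23.8 and 24.6%, GGTCACAC 2.61 and 2.95% and AT 66.3 and 65.3%. No paired analysis was possible because there is 1 group. No read counts were used, so what depth limits is unknown.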
